A study of Rattus norvegicus with 6 samples.

Results

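Histone genes were examined in the RNA of RUCA-I cells, an epithelial line from a rat endometrial adenocarcinoma, with and without the microRNA miR-203. The members are 52 of the 26751 rows of the deposited gene table. They comprise 20 rows with a Hist symbol, 16 rows of histone variants expressed through the cell cycle, and 16 further rows of chromosome 17. The symbols of these 16 further rows begin with LOC or AABR, and the rows start between 43.6 and 44.9 Mb, among the Hist genes. These LOC and AABR rows were taken by position alone, and RefSeq names only some of them as histone genes. All 52 rows were tested by the authors. Of the 9 variant symbols looked for, H1f0, H2afx, H2afy2 and H2afj gave no row under those names.

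The miR-203 KO group holds 3 lines that were generated independently and carry the genotype miR-203 -/-, and the WT group holds 3 batches of wild-type RUCA-I cells. All 6 samples are of the Lewis strain, were untreated and were grown in medium with fetal calf serum until nearly confluent. How the KO lines were made is not stated in the labels. No row carries a miR-203 symbol, so the targeted gene was not analysed here. A difference between separately made lines and the loss of miR-203 cannot be told apart. The table gives 1 pooled FPKM (fragments counted relative to transcript length and library size) per row and group, so values per sample, SDs and read depths are not known. The test against the spread between samples is the authors' own Cuffdiff test, in which a row was called at q under 0.05. Of 8 epithelial markers, 7 had a tested row, from 38.2 (Muc1) to 419 FPKM (Epcam) in KO cells and from 40.5 to 501 FPKM in WT cells. Krt8 had 241 FPKM in KO and 204 FPKM in WT cells, and Cldn4 had 228 FPKM in KO and 213 FPKM in WT cells, and no epithelial marker was called, with 3 at an unadjusted p under 0.05. Only 1 of 6 leukocyte markers, Csf1r (0.2004 FPKM in KO and 0.791 FPKM in WT cells, called lower), and 1 of 6 fibroblast markers, Col1a1 (1.17 FPKM in KO and 1.43 FPKM in WT cells), had a row, and none of 5 endothelial markers did.

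Histones package DNA into nucleosomes, built from the core histones H2A, H2B, H3 and H4, while the linker histone H1 binds the DNA between them. Replication-dependent histone genes lie in clusters, lack introns, are transcribed mainly in S phase, and their mRNAs usually end in a stem-loop without a poly(A) tail. Variant genes such as H3f3b, H2afz and H2afy lie alone, have introns, are expressed through the cell cycle and give polyadenylated mRNAs. miR-203 is a microRNA of epithelia. The mature RefSeq sequence of its 3p arm is printed because its loss defines the KO group, with the seed, bases 2 to 8, in capitals.
rno-miR-203a-3p: gUGAAAUGuuuaggaccacuag

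Promoters were read for members that matched a single RefSeq gene on the chromosome of the row. That held for 14 symbols of the Hist and chromosome 17 rows and for 5 variant symbols. The 250 bases before the RefSeq start (build GRCr8) of a called H2A gene, a called H2B gene, a called chromosome 17 locus and 2 variants that were not called are shown here, so that the promoters of both classes can be read side by side. Capitals mark matches on either strand of motifs known from histone promoters, namely the CCAAT box (CCAAT), the TATA box (letters TATAAA) and the octamer (letters ATTTGCAT).
Hist1h2ah, chr17:41812128-41812377 (plus strand): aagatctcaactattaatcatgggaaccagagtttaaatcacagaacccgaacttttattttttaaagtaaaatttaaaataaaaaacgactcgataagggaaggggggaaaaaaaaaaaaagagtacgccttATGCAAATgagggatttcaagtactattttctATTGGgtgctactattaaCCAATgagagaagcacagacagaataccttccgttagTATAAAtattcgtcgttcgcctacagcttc
Hist2h2be, chr2:186469202-186469451 (plus strand): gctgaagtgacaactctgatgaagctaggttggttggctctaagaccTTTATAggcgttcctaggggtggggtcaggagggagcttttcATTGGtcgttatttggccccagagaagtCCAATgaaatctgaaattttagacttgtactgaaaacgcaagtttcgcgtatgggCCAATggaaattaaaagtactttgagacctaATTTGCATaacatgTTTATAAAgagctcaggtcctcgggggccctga
LOC684828, chr17:41980342-41980591 (minus strand): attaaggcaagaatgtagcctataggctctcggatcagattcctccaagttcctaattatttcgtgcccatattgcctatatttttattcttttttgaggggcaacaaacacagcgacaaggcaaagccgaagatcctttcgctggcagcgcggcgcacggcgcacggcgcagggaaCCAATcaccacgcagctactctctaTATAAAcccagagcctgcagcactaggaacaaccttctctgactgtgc
H2afz, chr2:229028845-229029094 (plus strand): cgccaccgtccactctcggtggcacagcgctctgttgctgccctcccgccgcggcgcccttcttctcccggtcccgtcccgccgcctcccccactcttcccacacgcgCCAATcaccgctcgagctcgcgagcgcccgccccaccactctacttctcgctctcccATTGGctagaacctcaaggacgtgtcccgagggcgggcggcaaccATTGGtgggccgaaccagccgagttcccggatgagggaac
H3f3b, chr10:101757637-101757886 (minus strand): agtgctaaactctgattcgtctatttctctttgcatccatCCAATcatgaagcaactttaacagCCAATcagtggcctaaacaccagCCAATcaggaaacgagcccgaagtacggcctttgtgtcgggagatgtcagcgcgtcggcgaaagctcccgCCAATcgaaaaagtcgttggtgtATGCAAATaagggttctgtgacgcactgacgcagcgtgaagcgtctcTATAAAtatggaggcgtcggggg

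CCAAT was found before 14 of the 14 Hist and chromosome 17 genes and 4 of the 5 variant genes, against 34.0% of all 33469 RefSeq promoters. TATAAA was found before 10 of the 14 and 1 of the 5, against 12.9% of all promoters, and ATTTGCAT before 5 of the 14 and 1 of the 5, against 1.56%. Between TATAAA and the start lay 24 bases in Hist1h2ah, 25 in Hist2h2be, 42 in LOC684828 and 17 in H3f3b. In Hist2h2be this match overlapped a match on the other strand by 4 bases. H2afz held 3 CCAAT matches and neither of the other motifs. The windows of Hist1h2ai and Hist1h2bo share 237 bases, so the 14 are not all separate sequences. Their only TATAAA matches are the same site, 27 bases before the start of Hist1h2ai and, on the other strand, 230 bases before that of Hist1h2bo. The only TATAAA match of Hist1h2bk is also on the other strand, 211 bases before its start. The window of LOC102548682 reads, when translated, as part of a histone H3 coding sequence, and the RefSeq gene of LOC684773 lies among genes of another stretch of the chromosome than the row does. Without both, a choice made after the matches were seen, 12 of 12 genes held CCAAT, 10 held TATAAA and 5 held ATTTGCAT. These matches describe the letters only.

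The comparison asks how histone transcripts differed between KO lines and WT batches. Part of the replication-dependent histone rows rose in KO cells, and no variant row was called. Of the 20 Hist rows, 5 were called higher, 0 were called lower and 15 did not pass. Of the 16 chromosome 17 loci, 7 were called higher, 0 lower and 9 did not pass. Of all 26459 tested rows, 0.491% were called higher and 0.556% lower, or 1.05% in either direction. At any size, 16 of the 20 Hist rows, 15 of the 16 loci and 10 of the 16 variant rows were higher in KO cells, where 53.7% of all tested rows were. At an unadjusted p under 0.05 in the authors' deposited table, 11 of the 20 Hist rows, 14 of the 16 loci and 0 of the 16 variant rows passed, each of them higher in KO cells, where 3.25% of all tested rows passed and were higher and 6.0% passed in either direction. The median log2((KO + 1)/(WT + 1)) was 0.78 for Hist rows, 1.54 for the chromosome 17 loci and 0.07 for variant rows, and 0.02 over all tested rows. This ratio was at least 1 in 10 Hist rows, 13 loci and 0 variant rows, and in 0.888% of all tested rows. Histone copies are near-identical and share reads, which makes values of single copies uncertain.

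**Figure D1:**
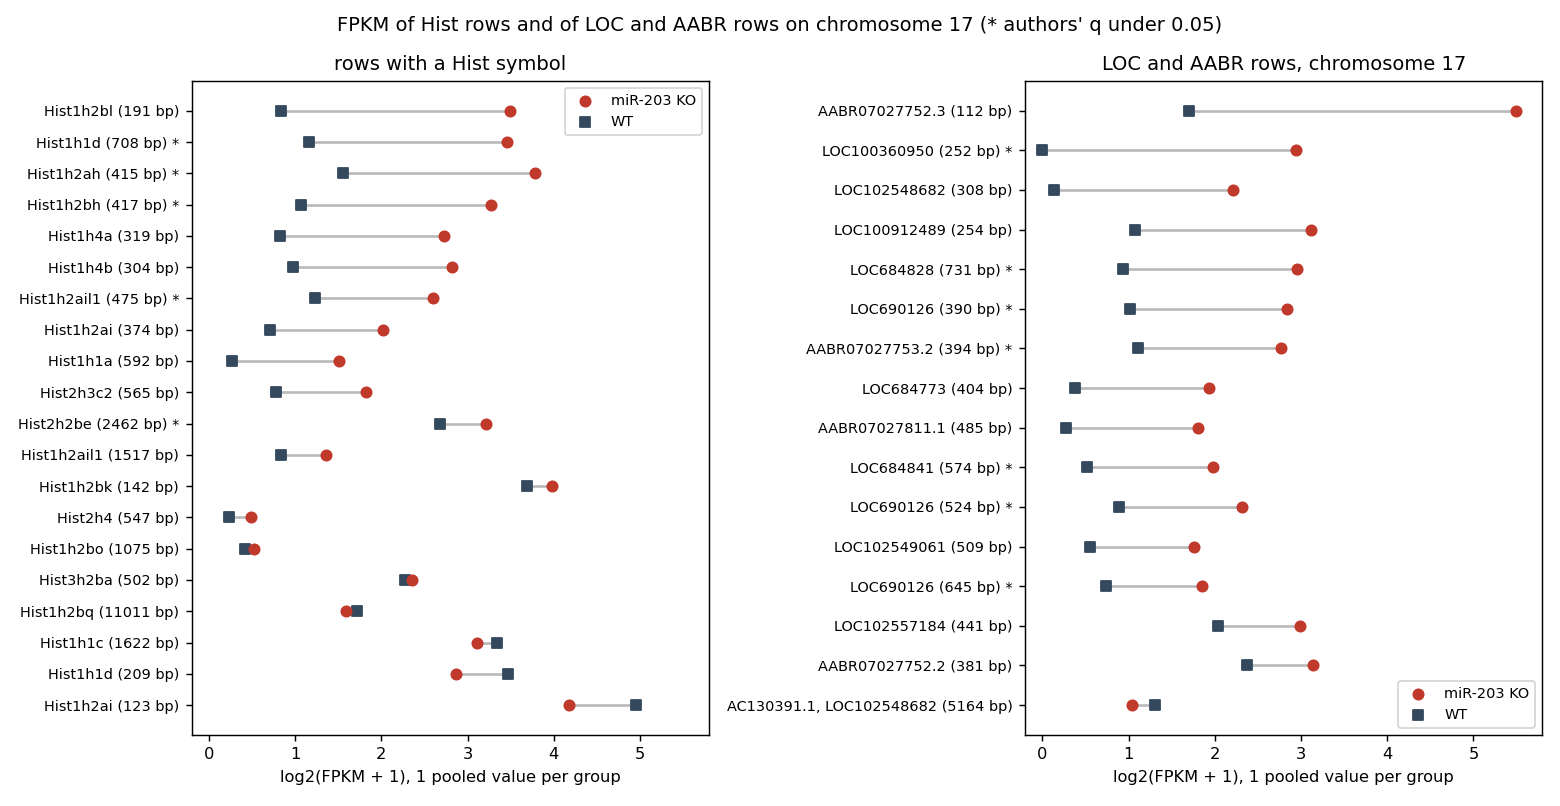
FPKM of the 20 Hist rows (left) and the 16 LOC and AABR rows of chromosome 17 (right) on a log2(FPKM + 1) axis, with circles for miR-203 KO and squares for WT cells, 1 pooled value per group and no error available. Stars mark rows with q under 0.05 in the authors' deposited table, and 16 of the 20 rows on the left and 15 of the 16 on the right have the KO value above the WT value.

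Linker histone H1 had 4 rows, of which 1 was called. Rows were typed by symbol, and RefSeq gives Hist1h1d as an older name of both H1f4 and H4f3, an H4 gene. The type of the rows with this symbol is thus uncertain. Hist1h1d, at its row of 708 bp (chromosome 17, 43734473 to 43735181), had 9.99 FPKM in KO cells, against 1.24 FPKM in WT cells, and rose 8.05-fold (q = 0.00756, authors' deposited table). A further row with the same symbol, 209 bp long and 1009 bp away, had 6.28 FPKM in KO and 10.1 FPKM in WT cells (q = 0.997), so the neighbouring rows of this name differed in direction. Hist1h1a had 1.85 FPKM in KO and 0.208 FPKM in WT cells and did not pass (q = 0.235). Hist1h1c, with the longest H1 locus at 1622 bp, stood at 7.65 FPKM in KO and 9.10 FPKM in WT cells (q = 0.982). The median log2 ratio of the 4 rows was 0.51.

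H2A, a core histone, had 5 rows with 2 calls. Hist1h2ah (415 bp, chromosome 17, 43632419 to 43632834) had 12.8 FPKM in KO cells, against 1.94 FPKM in WT cells, and rose 6.59-fold (q = 0.00756, authors' deposited table). Hist1h2ail1, at its row of 475 bp, had 5.06 FPKM in KO and 1.35 FPKM in WT cells and rose 3.74-fold (q = 0.0187). Its other row, 1517 bp long and 196850 bp away, had 1.56 FPKM in KO and 0.788 FPKM in WT cells, higher in KO cells too, and did not pass (q = 0.0961). Hist1h2ai had 3.04 FPKM in KO and 0.63 FPKM in WT cells at its row of 374 bp (q = 0.344). The row of 123 bp that lies 247 bp beyond it had 17.1 FPKM in KO and 30.01 FPKM in WT cells (q = 0.997), the highest WT value of any Hist row, at a length where FPKM is unstable.

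H2B, the partner of H2A in the nucleosome, had 7 rows with 2 calls. Hist1h2bh (417 bp, chromosome 2, 198418698 to 198419115) had 8.67 FPKM in KO cells, against 1.10 FPKM in WT cells, and rose 7.85-fold (q = 0.00756, authors' deposited table). Hist2h2be (2462 bp, chromosome 2, 198360976 to 198363438) had 8.25 FPKM in KO and 5.44 FPKM in WT cells and rose 1.52-fold with q = 0.0137. Its fold was the smallest of the called members with a WT value above 0, and it was the only called member over 1000 bp. Hist1h2bk had 14.8 FPKM in KO and 11.9 FPKM in WT cells (q = 0.997). Hist3h2ba, on chromosome 10, had 4.12 FPKM in KO and 3.85 FPKM in WT cells (q = 0.997). Hist1h2bl had 10.2 FPKM in KO and 0.778 FPKM in WT cells, yet did not pass (q = 0.997) at a locus of 191 bp. Hist1h2bq, listed over 11011 bp, had 2.0 FPKM in KO and 2.30 FPKM in WT cells, and Hist1h2bo had 0.442 FPKM in KO and 0.338 FPKM in WT cells, both with q = 0.997.

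H3 and H4, the pair at the centre of the nucleosome, had 4 rows with a Hist symbol, none of them called. RefSeq also names 2 called loci of chromosome 17, described further on, as H4 genes. Hist1h4a had 5.64 FPKM in KO and 0.77 FPKM in WT cells (q = 0.247 in the authors' deposited table). Hist1h4b had 6.05 FPKM in KO and 0.965 FPKM in WT cells (q = 0.233), a KO value 6.26 times that in WT cells. Hist2h3c2, the only H3 row, had 2.53 FPKM in KO and 0.715 FPKM in WT cells (q = 0.0617). Hist2h4 had 0.407 FPKM in KO and 0.176 FPKM in WT cells (q = 0.997). All 4 values were higher in KO cells, and 3 of the 4 had an unadjusted p under 0.05. Symbols and positions disagree for 4 rows, since RefSeq places the genes named Hist1h2bh, Hist1h4b, Hist2h3c2 and Hist2h4 on another chromosome than the row, so the identity of these copies is uncertain. LOC684773 also lies at another place of chromosome 17 than its RefSeq gene, relative to neighbouring genes.

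Of the LOC and AABR rows of chromosome 17, 7 rose. LOC684828 (731 bp, 43797644 to 43798375), which RefSeq lists as H4f3 with Hist1h1d as an older name, had 6.73 FPKM in KO cells, against 0.915 FPKM in WT cells, and rose 7.35-fold (q = 0.00756, authors' deposited table). LOC100360950, named H4cl3 in RefSeq, had 6.69 FPKM in KO cells and was listed at 0 in WT cells, with the same q. At 252 bp it was the only called member under 300 bp, a length where FPKM is unstable. AABR07027753.2 had 5.78 FPKM in KO and 1.16 FPKM in WT cells and rose 4.97-fold (q = 0.0269). LOC684828 and AABR07027753.2 lie near each other, and LOC100360950 lies about 1 Mb away, at 44815660 to 44815912.

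LOC690126 names 3 rows at separate places, and all 3 rose. The row of 390 bp had 6.17 FPKM in KO and 1.02 FPKM in WT cells (q = 0.031 in the authors' deposited table). That of 524 bp had 3.98 FPKM in KO and 0.855 FPKM in WT cells (q = 0.0236), and that of 645 bp had 2.60 FPKM in KO and 0.663 FPKM in WT cells (q = 0.0431). At these 3 places KO values were 3.92 to 6.03 times the WT values. LOC684841 had 2.95 FPKM in KO and 0.43 FPKM in WT cells and rose 6.85-fold (q = 0.0431). Symbols used for several loci cannot be tied to single copies.

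Among the 9 loci that did not pass, 8 were higher in KO cells. AABR07027752.3, a locus of 112 bp, had the highest KO value of the Hist and chromosome 17 rows at 43.9 FPKM, against 2.25 FPKM in WT cells (q = 0.938, authors' deposited table). LOC100912489 had 7.63 FPKM in KO and 1.11 FPKM in WT cells (q = 0.508), LOC102557184 had 6.93 FPKM in KO and 3.10 FPKM in WT cells (q = 0.0814), and AABR07027752.2 had 7.79 FPKM in KO and 4.198 FPKM in WT cells (q = 0.334). LOC684773, whose gene ID RefSeq gives to H2ac23, an H2A gene at another place, had 2.80 FPKM in KO and 0.303 FPKM in WT cells (q = 0.413). AABR07027811.1 had 2.50 FPKM in KO and 0.208 FPKM in WT cells, LOC102549061 had 2.39 FPKM in KO and 0.459 FPKM in WT cells, and LOC102548682 had 3.61 FPKM in KO and 0.0976 FPKM in WT cells. The exception was the row shared by AC130391.1 and LOC102548682, 5164 bp long, with 1.05 FPKM in KO and 1.48 FPKM in WT cells (q = 0.997).

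Histone variants had 16 rows and 0 calls by Cuffdiff, and 0 at an unadjusted p under 0.05. H3f3b, a gene for the replacement histone H3.3, had 279 FPKM in KO and 266 FPKM in WT cells, the highest level of all members. H3f3a, the other H3.3 gene, had 24.5 FPKM in KO and 21.7 FPKM in WT cells at its highest row. H2afz, which encodes H2A.Z, a variant at promoters, had 92.9 FPKM in KO and 92.2 FPKM in WT cells in a row whose listed locus of 139937 bp it shares with other rows. H2afy, which encodes macroH2A1, had 139.8 FPKM in KO and 146 FPKM in WT cells. In the authors' deposited table each of these differences had q = 0.997.

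The other variant rows had lower levels. H2afy had a further row at 7.35 FPKM in KO and 7.56 FPKM in WT cells. H2afv, which encodes a further H2A.Z, had 4 rows that share a single locus, all under 1 FPKM in both groups. H3f3a had 6 further rows, from 0.445 to 2.24 FPKM in KO cells and from 0.258 to 4.09 FPKM in WT cells, and H3f3b a further row at 0.441 FPKM in KO and 0.787 FPKM in WT cells. The 16 rows summed to 552 FPKM in KO and 544 FPKM in WT cells, a ratio of 1.01. The 20 Hist rows summed to 129 FPKM in KO and 83.8 FPKM in WT cells, a ratio of 1.53, and 2.59 without loci under 300 bp. In FPKM as listed, the variant sum thus exceeded the Hist sum in both groups. The Hist sum leaves out the chromosome 17 loci, which summed to 113 FPKM in KO and 18.3 FPKM in WT cells. Whether the sums rank the mRNA levels in the cells was not tested.

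Of the 20 Hist and chromosome 17 rows of at least 300 and under 600 bp, all 20 were higher in KO cells, 7 were called and 16 had a log2((KO + 1)/(WT + 1)) of at least 1. Over all tested rows of that length, 0.456% were called higher and 1.23% reached that size, with a median of 0.07 against 1.44 for these 20 rows. Of the 9 Hist and chromosome 17 rows of 600 bp and over, 6 were higher and 4 were called, with a median of 0.51. Over all tested rows of that length, 0.483% were called higher. Among these 9, 3 had a log2 ratio of at least 1, as had 0.501% of all tested rows of that length. Of the 7 Hist and chromosome 17 rows under 300 bp, 5 were higher, 1 was called and 4 reached that size. Of all tested rows under 300 bp, 0.666% were called higher and 5.45% reached that size. The 3 of these 9 under 1000 bp were all called and had a median of 2.01. With that bound, chosen after the values were seen, the 6 longest Hist and chromosome 17 rows had a median of -0.01 and a highest value of 0.52.

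**Figure D2:**
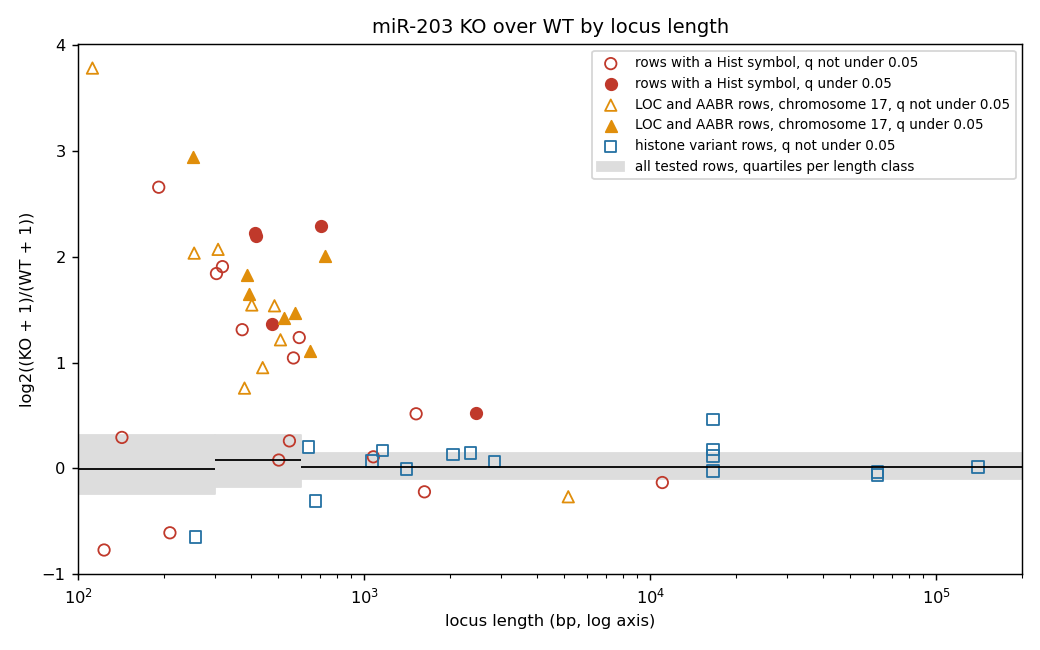
Log2((KO + 1)/(WT + 1)) of the 52 member rows against locus length in bp on a log axis, with filled symbols for rows with q under 0.05 in the authors' deposited table. Grey bands give the quartiles and black lines the medians of all tested rows of each length class, and the 20 Hist and chromosome 17 rows of at least 300 and under 600 bp lie between 0.08 and 2.23.

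By position, the Hist, LOC and AABR rows of chromosome 17 fall in 2 stretches, from 43614123 to 43821510 and from 44527557 to 44815912. The first stretch held 23 member rows with 9 calls, and the second 9 rows with 1 call, LOC100360950. Of all tested rows, 0.491% were called higher. In the first stretch 19 rows were higher in KO cells, with a median log2((KO + 1)/(WT + 1)) of 1.36. In the second 8 rows were higher, with a median of 1.31, so the medians were similar. Calls were not limited to that chromosome, since Hist1h2bh and Hist2h2be on chromosome 2 were called too. The 20 other rows of the interval had 0 calls by Cuffdiff and 1 unadjusted p under 0.05, with a median log2((KO + 1)/(WT + 1)) of 0.06. Rows with a gene name among them numbered 12, all of genes other than histones, and had a median of -0.02. They stand for fewer genes, since Zfp184 and Zfp322a each had several rows at a single listed locus. The median locus length of these 12 rows was 16346 bp, against 458 bp for all Hist and chromosome 17 rows. The part of length in this contrast was not tested either. Abt1, a nucleolar protein gene between the stretches, had 14.2 FPKM in KO and 15.1 FPKM in WT cells, and Prss16, a serine protease gene, had 7.99 FPKM in KO and 8.23 FPKM in WT cells. Hfe, the haemochromatosis gene inside the first stretch, had 0.251 FPKM in KO and 1.18 FPKM in WT cells (q = 0.846 in the authors' deposited table).

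**Figure D3:**
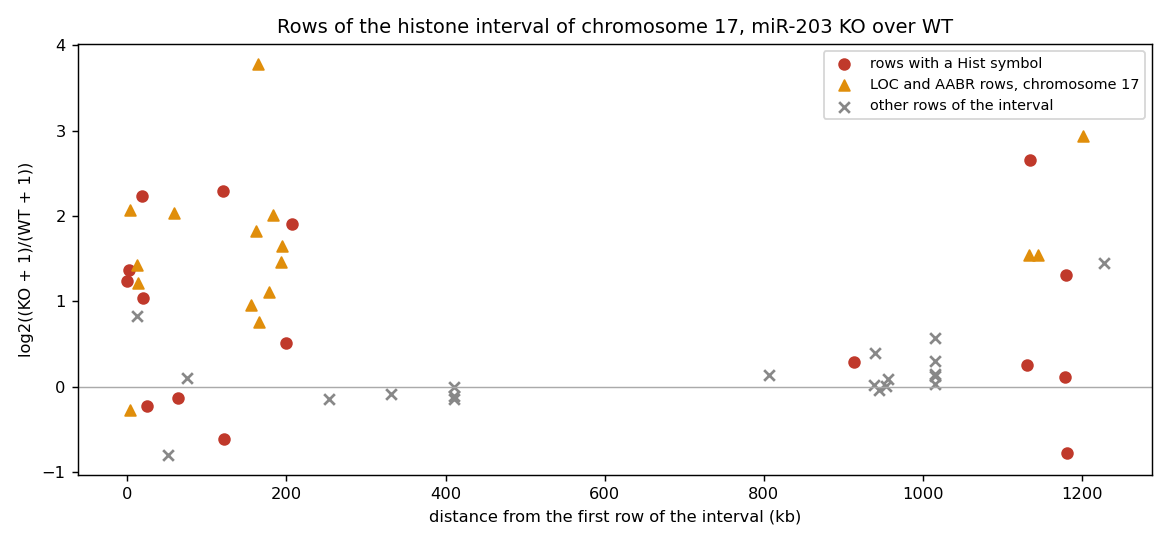
Log2((KO + 1)/(WT + 1)) of the rows of the chromosome 17 interval against the distance in kb from its first row, with circles for Hist rows, triangles for LOC and AABR rows and crosses for the 20 other rows. Hist, LOC and AABR rows reach 3.79, at AABR07027752.3 (112 bp, q = 0.938 in the authors' deposited table). The 20 other rows reach 1.45, at AC114096.2 (q = 0.838), and the 12 of them with a gene name have a median of -0.02.

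Genes that act on histone mRNA or histone proteins were described beside the members, each by its row with the highest mean. Factors for histone mRNA had 0 calls by Cuffdiff among 18 with a tested row, 1 unadjusted p under 0.05, and a median of -0.04, with 6 higher and 12 lower. Slbp, which binds the stem-loop of histone mRNAs, had 43.7 FPKM in KO and 48.5 FPKM in WT cells. Npat, the coactivator of histone gene transcription, had 15.6 FPKM in KO and 16.7 FPKM in WT cells, and Casp8ap2, which joins the 3′ end processing complex, had 16.3 FPKM in KO and 17.01 FPKM in WT cells. Upf1, a helicase used in histone mRNA decay, had 55.4 FPKM in KO and 56.04 FPKM in WT cells. Eri1, an exonuclease that trims the stem-loop, had 21.4 FPKM in KO and 25.2 FPKM in WT cells. Its unadjusted p by Cuffdiff was 0.0405, with q = 0.789 in the authors' deposited table. Each factor named so far was lower in KO cells. Among the 6 that were higher, Cstf2 had the largest log2 ratio, 0.62. Its values were 24.9 FPKM in KO and 15.8 FPKM in WT cells (q = 0.997).

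Histone chaperones, which carry histones to and from DNA, had 0 calls by Cuffdiff among 25, 0 unadjusted p under 0.05, and a median of -0.08, with 6 higher and 19 lower. Nap1l1 had 304.3 FPKM in KO and 335 FPKM in WT cells, Ssrp1, a subunit of the FACT complex, had 188 FPKM in KO and 206 FPKM in WT cells, and Rbbp7 had 166 FPKM in KO and 169 FPKM in WT cells. S phase genes had 0 calls by Cuffdiff among 25, 1 unadjusted p under 0.05 (Prim1, 74.1 FPKM in KO and 88.2 FPKM in WT cells), and a median of -0.06, with 8 higher and 17 lower. Pcna, the sliding clamp of DNA polymerases, had 212 FPKM in KO and 194 FPKM in WT cells, and the replicative helicase subunits Mcm2 and Mcm5 had 112 and 115 FPKM in KO cells, against 118 and 131 FPKM in WT cells. The medians of these 3 lists were thus within 0.1 of 0, against 0.78 for Hist rows on the same scale. Locus lengths differed, with medians of 28550, 23612 and 16986 bp for the 3 lists and 488.5 bp for Hist rows. Hist and chromosome 17 rows of 1000 bp and over, a bound chosen after the values were seen, had a median of -0.01. The part of length in this contrast was not tested.

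**Figure D4:**
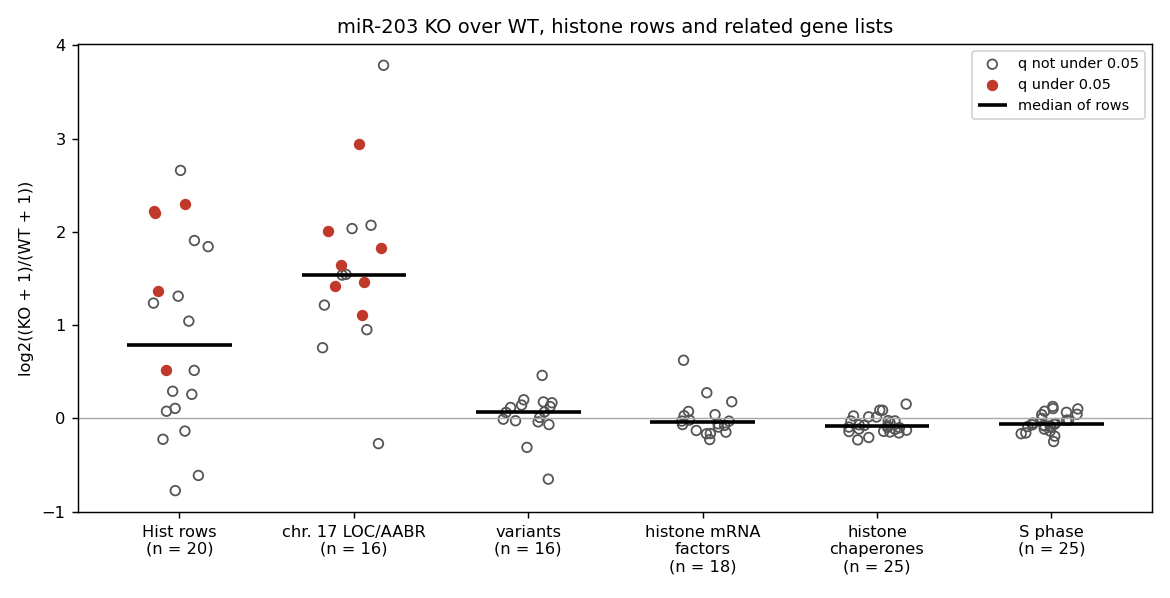
Log2((KO + 1)/(WT + 1)) of the histone rows and of genes for histone mRNA factors, histone chaperones and S phase, with 1 point per row, filled where q was under 0.05 in the authors' deposited table, and bars at the medians. Filled points occur among the 20 Hist and 16 chromosome 17 rows, and the medians of the other 4 groups lie between -0.08 and 0.07.

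Other RNAs without a poly(A) tail were looked for, since replication-dependent histone mRNAs lack one. Of 10 list entries, 2 had a tested row. Rmrp, the RNA of RNase MRP, listed over 264 bp, a length where FPKM is unstable, had 47.7 FPKM in KO cells, against 2.94 FPKM in WT cells, and was called higher (q = 0.00756, authors' deposited table). Of all tested rows under 300 bp, 0.666% were called higher. The row named Scarna15, listed over 7956 bp, had 4.90 FPKM in KO and 4.02 FPKM in WT cells and did not pass (q = 0.997). How much RNA without poly(A) entered each library is not stated in the labels, and its part in the histone values was not tested.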

How the data were processed

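Total RNA of 3 miR-203 KO and 3 WT samples was sequenced from stranded dUTP libraries, per the labels' protocols. Per the submitters' processing notes, TopHat 0.9, Cufflinks 2.2.1 and Cuffdiff 2.2.1.3 were used with build rn6, with annotation and options not stated there. Per the file headers, the authors deposited 1 FPKM value per row and group, a log2 fold change (KO over WT), a test score (not used here), the p-value and the q-value. FPKM is unstable at loci near the fragment length and keeps no depth. Strand-aware counting is not stated.

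Decimal commas were converted and 52 rows were taken by symbol or position, with positions as listed on rn6. The deposited q-values matched Benjamini-Hochberg values recomputed over the 26459 tested rows, and 277 rows (1.05%) were called. The design had foreseen limma for values per sample, and the table holds none, so the authors' test was used. Ratios use a pseudocount of 1, which understates low rows. Benjamini-Hochberg adjustment was tested on simulated p-values. Medians were checked on shuffled real ratios with an added shift, which a median recovers by construction. RefSeq (GRCr8) matched 26 of 36 member symbols, 22 of them to a single gene.

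Named were all called members, all variants, member rows averaging at least 5 FPKM, rows sharing their symbols, and called or the 3 highest genes per list, of which 1 is not reported here. Further names were picked with values in view, as was the use of the row with the highest mean for each listed gene. Members and lists were chosen with earlier results of these data known. Python 3.11.15, pandas 2.3.3, NumPy 2.4.6 and matplotlib 3.10.9 were used.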

Additional observations from a re-analysis of the deposited data

How the results depend on the processing

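Of 50 alternative values for the counts, medians and sums, 40 lay within 1.5 times the reported value. Medians of log2 ratios were compared after conversion to folds. Some of the 40 could not differ, such as the sums over tested rows, since all member rows were tested. The 10 values that moved further were all of Hist rows or chromosome 17 loci. The calls of 5 Hist rows and 7 chromosome 17 loci became 3 and 0 with q adjusted again over rows averaging at least 5 FPKM, which left 8 and 3 of these rows, and 3 and 2 at q under 0.01. Without a pseudocount the median log2 ratio was 1.52 for Hist rows and 2.59 for the loci, and with a pseudocount of 0.1 it was 1.295 for Hist rows and 2.50 for the loci. The ratio of summed FPKM without loci under 300 bp was 2.59 for Hist rows and 3.71 for the loci, against 1.53 and 6.22, and 2.37 for Hist rows with 1 row per symbol. Leaving out Hist rows that RefSeq places on another chromosome, an alternative added after seeing the data, gave 4 calls and a median of 0.52. Variant rows had 0 calls under the 6 alternatives for their count, and their median log2 ratio lay between -0.01 and 0.12. The cause of these shifts was not tested beyond the fewer rows named. No paired analysis was possible because each group has a single pooled value, and the replicate block and leaving out each replicate were not run for the same reason.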

Other observations

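Rows of the chromosome 17 interval with symbols of other kinds, not taken by the rule, included AC130391.4 (692 bp), with 1.95 FPKM in KO and 0.662 FPKM in WT cells (q = 0.102 in the authors' deposited table). AC114096.2 had 2.45 FPKM in KO and 0.265 FPKM in WT cells (q = 0.838), and RGD1561897 had 21.2 FPKM in KO and 19.3 FPKM in WT cells (q = 0.997). Cenpa, the centromeric H3 variant, had 19.97 FPKM in KO and 17.1 FPKM in WT cells (q = 0.997).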
